A study of Danio rerio with 20 samples.

Results

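HOX genes encode homeodomain transcription factors and lie side by side in clusters. The rows described here are genes of those clusters in 11 zebrafish leukemias. A row of the count table was taken as a HOX gene when its symbol, read without regard to case, was hoxa, hoxb, hoxc or hoxd followed by a number and an optional letter. This gave 47 of 32105 rows, of which 11 were hoxa, 15 hoxb, 14 hoxc and 7 hoxd rows. The RefSeq gene table lists 49 protein-coding HOX genes. Some of them, such as hoxa4a, have no row of that name here, so the clusters are not covered in full. The rule uses names alone, though the set was taken up with earlier results of these data known. The number in a HOX name is its paralogue group, which runs from 1 at one end of a cluster to 13 at the other. Zebrafish have 7 HOX clusters, which arose when the genome of the fish lineage was duplicated again, and a letter a or b at the end of a name tells the resulting copies apart. In the embryo the clusters give cells their position along the body axis, with low-numbered groups active towards the head and high-numbered groups towards the tail. In blood, work in mouse and human has shown that HOXA and HOXB genes are active in stem and progenitor cells and are turned down as cells mature. In human leukemia, high HOXA9, HOXA10 and MEIS1 mark cases with KMT2A fusions and some T-cell cases.

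Bulk polyA RNA of leukemia cells from fish of CG1, a clonal zebrafish strain, was sequenced in 20 libraries. The labels give each library a self-renewal capacity, high or low, so that 14 libraries of 8 tumors count as high and 6 libraries of 3 tumors as low. The series' design text instead speaks of 6 high tumors and 5 low ones and sets the boundary at 1% leukemia-initiating cells, and the labels are followed here. The high tumors were 8.4.1.1.1, 14.1.1.1, 4.3.1, 8.3, 2.1, 15.2, 13.1.1 and 7.2.1, and the low tumors were 9.2, 10.2 and 12.2. All tumors share the strain and the cell type label blood, and no transgene, treatment or age is stated in the labels. Whether tumors came from separate fish is not stated either, and the tests below therefore rest on tumor-to-tumor spread, whatever its source. Titles 8.4.1.1.1 and 8.3 begin with the same number, and the labels do not say how these tumors are related. The 2 libraries of each of 9 tumors were summed, and tumors 8.4.1.1.1 and 14.1.1.1 had 1 library each. Total counts per tumor lay between 11573276 and 32466048. Levels are CPM values, that is, counts divided by the library size in megacounts after correction by trimmed mean of M values (TMM), and a gene was called detected in a tumor at a CPM of 1 or more. CPM is not divided by transcript length, so levels are compared between tumors and not between genes.

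Lymphoid markers divided the groups. Summed CPM of 11 T cell genes was 2657 to 3545 in high tumors, with 8 to 11 of the 11 detected, and 42.2 to 783 in low tumors, with 5 to 9 detected. Summed CPM of 8 B cell genes was 3.11 to 16.9 in high tumors, with 0 to 4 detected, and 263 to 1401 in low tumors, with 6 detected in each. Summed CPM of 7 blood progenitor genes was 204 to 481 in high tumors, with 2 to 3 detected, and 521 to 976 in low tumors, with 5 detected in each. The leading gene was MYB in all high tumors, at 198 to 477 CPM, and in tumor 12.2, at 256 CPM. In tumors 9.2 and 10.2 it was cd34, at 596 and 592 CPM, so these sums rest on different genes. None of the T cell, B cell and progenitor sums overlapped between the groups. The part of these markers in differences between the groups below was not tested, and in this design it cannot be told apart from that of the self-renewal label. Tumor 9.2 had the highest B cell and progenitor sums (1401 and 976 CPM) and the lowest T cell sum (42.2 CPM) of all tumors. Among the low tumors, 12.2 had the highest T cell sum (783 CPM, 9 of 11 genes detected) and the lowest B cell sum (263 CPM). In bulk RNA, fewer cells of a type and less RNA per cell cannot be told apart.

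Of the 47 HOX rows, 9 (19.1%) reached a CPM of 1 in at least 1 tumor, against 52.1% of all 32105 rows. The detected rows were hoxa13b, HOXB2, HOXB3, HOXB4, HOXB5 (ENSDARG00000054030), hoxb8b, hoxc3a, HOXC4 and HOXC6 (ENSDARG00000070343). Symbols in capitals are those of the gene name table. By name, HOXB2, HOXB3, HOXB4 and HOXC4 are the zebrafish genes hoxb2a, hoxb3a, hoxb4a and hoxc4a, since the b copy is absent from the RefSeq table, whereas HOXB5 and HOXC6 each name 2 rows that could not be assigned to the a or the b copy. The 9 rows held 4142 of the 4243 HOX counts (97.6%). The other 38 rows stayed under a CPM of 1 in all 11 tumors, 6 of them without a count and 24 with 1 to 3 counts over all tumors together. The highest level among the 38 was 0.286 CPM, from 9 counts of HOXA3 in tumor 8.3. A count of 3 corresponds to between 0.0953 CPM in the deepest tumor and 0.258 CPM in tumor 8.4.1.1.1, so most of these values lie at the limit of what the depth can show.

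Detection was uneven between clusters and along them. HOXB had 5 of 15 rows detected in at least 1 tumor, HOXC 3 of 14, HOXA 1 of 11 and HOXD 0 of 7. No HOXD row had more than 2 counts in a tumor, and the highest HOXD level was 0.0948 CPM, for HOXD3 in tumor 13.1.1. The detected rows fell in paralogue group 2 (1 of 2 rows), group 3 (2 of 4), group 4 (2 of 3), group 5 (1 of 4), group 6 (1 of 4), group 8 (1 of 3) and group 13 (1 of 5). None was detected in groups 1, 7, 9, 10, 11 or 12. In groups 9 to 13 together, 1 of 22 rows was detected. Groups 9 and 10, which include the genes best known from human leukemia, did not exceed 0.237 CPM in any tumor. For hoxa9a, hoxa9b and hoxa10b the counts over all 11 tumors were 2, 2 and 1.

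**Figure D1:**
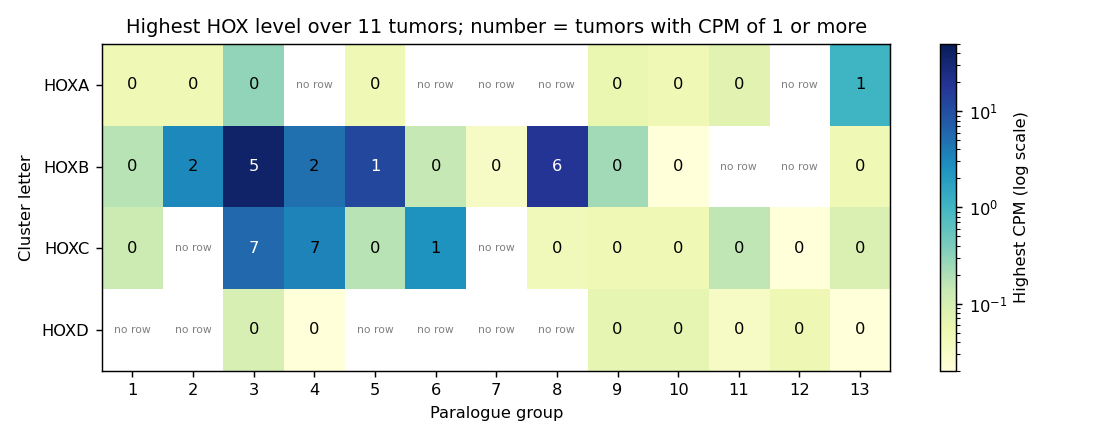
HOX rows by cluster letter (vertical) and paralogue group (horizontal). Colour gives the highest CPM of any row of that letter and group over the 11 tumors, on a log scale, and the number in a cell counts the tumors in which a row of it reached a CPM of 1. White cells marked "no row" have no row in the count table. The filled cells stand in HOXB groups 2 to 5 and 8 and HOXC groups 3, 4 and 6, with HOXA group 13 in 1 tumor, and HOXD is at 0 throughout.

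Each tumor had between 1 and 6 HOX genes at a CPM of 1 or more, and the genes differed between tumors. Among high tumors, 8.4.1.1.1 had 4 (HOXB3, hoxb8b, hoxc3a and HOXC4). Tumors 8.3 (HOXB5, hoxc3a and HOXC4), 15.2 and 13.1.1 (both hoxb8b, hoxc3a and HOXC4) had 3 each. Tumors 14.1.1.1 (HOXB3 and hoxb8b), 4.3.1 (hoxc3a and HOXC4) and 2.1 (hoxa13b and hoxb8b) had 2 each, and 7.2.1 had hoxb8b alone. Among low tumors, 12.2 had 6 (HOXB2, HOXB3, HOXB4, hoxc3a, HOXC4 and HOXC6), 10.2 had 3 (HOXB2, HOXB3 and HOXB4), and 9.2 had 3 (HOXB3, hoxc3a and HOXC4). Over all pairs of a HOX row and a tumor, 20 of 376 (5.32%) were detected in high tumors and 12 of 141 (8.51%) in low tumors. The same share over all rows was not taken for each group, so no difference between the groups is read from these shares. No HOX gene was detected in every tumor.

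**Figure D2:**
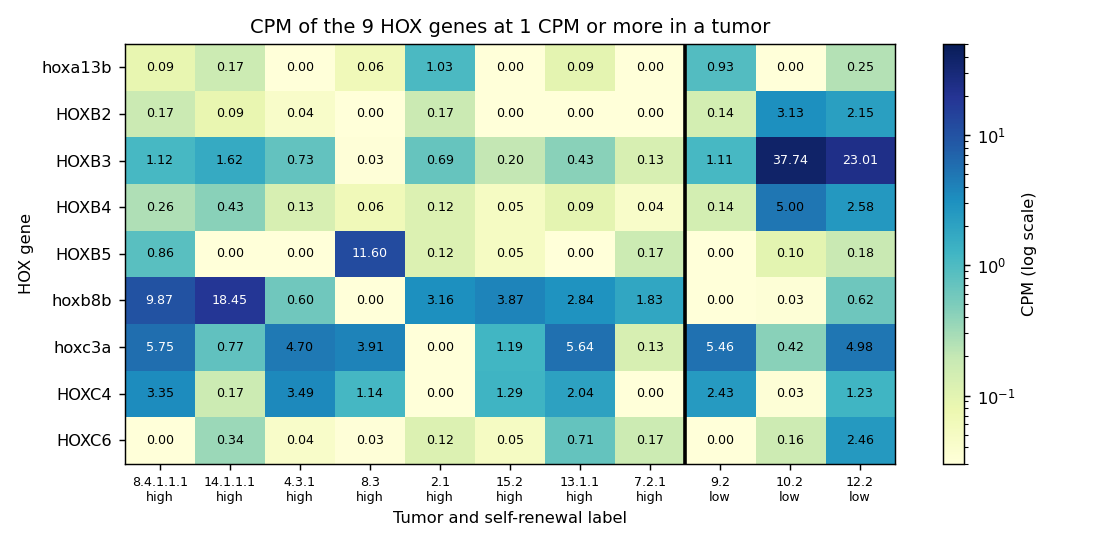
CPM of the 9 detected HOX genes (rows; HOXB5 is ENSDARG00000054030 and HOXC6 is ENSDARG00000070343) in the 11 tumors (columns), coloured on a log scale with the value printed in each cell. The 8 high tumors stand left of the black line and the 3 low tumors right of it. HOXB2, HOXB3 and HOXB4 are high in low tumors 10.2 and 12.2, hoxb8b lies mostly among high tumors, and hoxc3a and HOXC4 are spread over both groups.

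The anterior HOXB genes come first. HOXB2 helps to pattern the hindbrain, HOXB3 is active in early blood cells of mouse and human, and HOXB4 expands mouse and human blood stem cells when it is raised artificially. HOXB3 had 0.0318 CPM at the lowest, 0.558 at the median and 1.62 at the highest in high tumors, against 1.11 CPM in tumor 9.2, 37.7 in tumor 10.2 and 23.0 in tumor 12.2. Low tumors 10.2 and 12.2 stood above every other tumor, while the third low tumor, 9.2, lay within the range of the high tumors, so the groups overlap. The mean was 0.617 ± 0.542 CPM in high tumors (SD, n = 8) and 20.6 ± 18.4 CPM in low tumors (SD, n = 3). In a fit across all genes, HOXB3 fell in high tumors relative to low tumors, with a log2 fold change of -5.10 ± 0.94 (SE) and an adjusted p of 0.00679 by edgeR's quasi-likelihood test. With limma-voom the log2 fold change was -4.71 and the adjusted p 0.0602, which misses the threshold of 0.05. In the fits that left out 1 tumor each, the adjusted p stayed between 0.00316 and 0.0445.

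HOXB3 was the 1 HOX row called lower, out of 4 that passed the filter on low counts, and no HOX row was called higher. Over all 16008 genes tested, 5.2% were called lower and 4.0% higher in high tumors. The 4 rows that passed were HOXB3, hoxb8b, hoxc3a and HOXC4, and the remaining 43 were too low for this fit.

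HOXB2 and HOXB4 followed the same tumors as HOXB3. HOXB2 had 0 CPM at the lowest, 0.0216 at the median and 0.172 at the highest in high tumors, against 0.143 CPM in tumor 9.2, 3.13 in tumor 10.2 and 2.15 in tumor 12.2. HOXB4 had 0.0426, 0.105 and 0.425 CPM at the same 3 points in high tumors, against 0.143 CPM in tumor 9.2, 5.00 in tumor 10.2 and 2.58 in tumor 12.2. For both genes, 10.2 and 12.2 were the 2 highest tumors of the 11 and 9.2 lay within the high group. Neither gene passed the filter. Without any filter, HOXB4 was called lower in high tumors (log2 fold change -4.18 ± 0.86, SE, adjusted p = 0.0125, edgeR) and so was HOXB2 (-5.00 ± 1.1, SE, adjusted p = 0.0177, edgeR). Without tumor 9.2 both passed the filter through tumors 10.2 and 12.2, where they are high, so calls from that fit are not read.

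HOXB3 made up most of the counts of the 3 neighbours in each of the 5 tumors with 20 or more counts of them. HOXB3 made up 82.3% of 1422 counts of the 3 genes in tumor 10.2 (95% exact binomial interval 80.2% to 84.2%) and 82.9% of 451 counts in tumor 12.2 (79.1% to 86.3%). HOXB4 made up 10.9% in tumor 10.2 (9.33% to 12.6%) and 9.31% in tumor 12.2 (6.79% to 12.4%), so the intervals of the 2 tumors overlap. Where the genes were low, the HOXB3 share was 76.0% of 25 counts in high tumor 14.1.1.1, 81.0% of 21 in high tumor 4.3.1 and 79.5% of 39 in low tumor 9.2. These shares depend on transcript length and are comparable between tumors only, and the intervals cover counting error alone. In the RefSeq gene table, which is of another assembly than the counts, hoxb3a spans hoxb4a, hoxb5a and hoxb6a. Reads of HOXB3 and of those genes may therefore not be told apart. HOXB6 and HOXB7, further along the same cluster, had 3 counts and 1 count over all tumors, and HOXB8, assigned to hoxb8a, had 2.

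**Figure D3:**
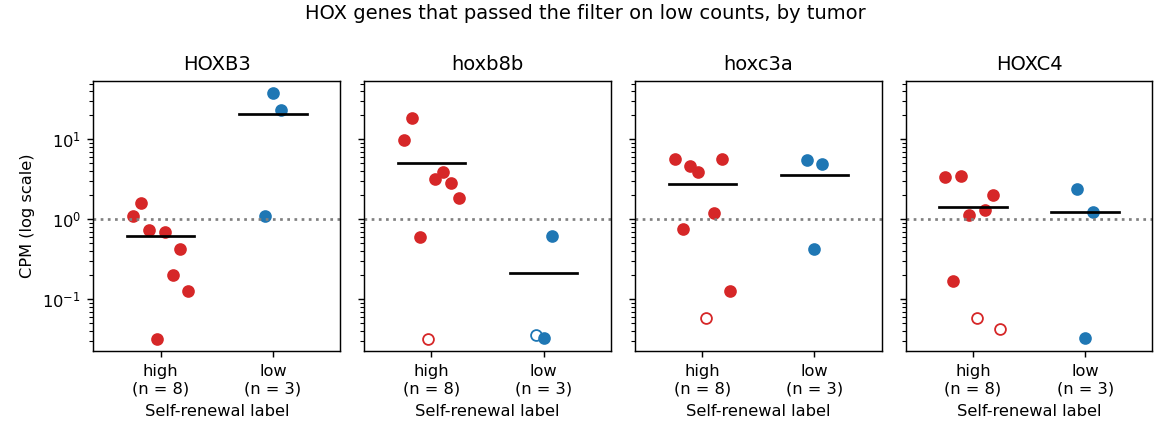
CPM per tumor (vertical, log scale) of the 4 HOX genes that passed the filter on low counts, in 8 high tumors (red, left) and 3 low tumors (blue, right) of each panel. Bars are group means, the dotted line is a CPM of 1, and open circles are tumors without a count, drawn at the CPM of 1 count. HOXB3 is above 20 CPM in 2 low tumors, hoxb8b is above 1 CPM in 6 high tumors and no low tumor, and hoxc3a and HOXC4 overlap throughout.

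Of the other HOXB genes, hoxb8b lies in the second HOXB cluster of the fish, hoxbb. Its mouse counterpart, Hoxb8, keeps myeloid progenitors dividing when it is forced on. It had 0 CPM at the lowest, 3.002 at the median and 18.4 at the highest in high tumors, against 0 CPM in tumor 9.2, 0.0323 in tumor 10.2 and 0.615 in tumor 12.2. It was detected in 6 of 8 high tumors and in 0 of 3 low tumors. The 2 highest were 14.1.1.1 (217 counts) and 8.4.1.1.1 (115 counts, 9.87 CPM), which are also the 2 tumors with 1 library. High tumors 8.3, with no count, and 4.3.1, with 0.604 CPM, lay within the range of the low tumors. By the floor of 3 counts, a count of 0 allows a level of up to 0.0953 CPM in tumor 8.3 and up to 0.107 CPM in tumor 9.2.

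The difference in hoxb8b did not pass the threshold. The log2 fold change, high over low, was 4.65 ± 1.88 (SE), with an unadjusted p of 0.0292 and an adjusted p of 0.146 by edgeR's quasi-likelihood test. DESeq2 gave 4.62 with an adjusted p of 0.00905, in a run in which 17.8% of genes were called in either direction, and limma-voom gave 4.23 with an adjusted p of 0.417, with 9.95% of genes called. The call therefore depends on the test. Since hoxb8b passed the filter on low counts through the high tumors, where it is high, the DESeq2 call is not read. Leaving out 1 tumor at a time gave edgeR fold changes between 3.96 and 7.85 on the log2 scale, the highest without tumor 12.2, and adjusted p-values between 0.0617 and 0.365. The other assigned genes of that cluster stayed low in every tumor, hoxb1b at up to 0.170 CPM and hoxb6b at up to 0.0575 CPM. RefSeq also places hoxb5b in hoxbb, and which of the HOXB5 rows is that gene could not be assigned.

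HOXB5 (ENSDARG00000054030) was high in 1 tumor. In mouse, Hoxb5 marks long-lived blood stem cells. High tumor 8.3 had 11.6 CPM from 365 counts, the next high tumor, 8.4.1.1.1, had 0.858 CPM, and the median of the high tumors was 0.0823 CPM, against 0 CPM in tumor 9.2, 0.0968 in tumor 10.2 and 0.184 in tumor 12.2. Both libraries of tumor 8.3 gave this level, at 11.5 and 10.9 CPM, with factors set per library. Tumor 8.3 also stood apart in a few genes listed as markers of other tissues. Its summed CPM of 7 muscle genes was 18.1, while the sum was at most 1.71 in the other 10 tumors. Only 3 of the 7 were detected, ckmb at 9.18, ckma at 4.57 and TNNT3 (ENSDARG00000068457) at 3.37 CPM. Both ACTA1 rows, at 0.445 and 0.540 CPM, the other TNNT3 row, at 0.0318 CPM, and myhz1.1, at 0, were not. The summed CPM of 6 neuron genes in tumor 8.3 was 21.8, almost all from tubb5 at 21.6. There ELAVL3, ELAVL4, MNX1 and both SNAP25 rows had at most 0.0953 CPM, 1 of them 0. In the other tumors the neuron sum was at most 1.89. The part of these genes' source in the HOXB5 level was not tested. The second HOXB5 row (ENSDARG00000013057) had 3 counts over all tumors.

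The detected HOXC genes are hoxc3a, a paralogue group 3 gene that fish keep and mammals have lost, HOXC4, which in human and mouse B cells acts on the gene for the antibody-diversifying enzyme AID, and HOXC6, a mid-cluster gene of the trunk. For hoxc3a, high tumors had 0 CPM at the lowest, 2.55 at the median and 5.75 at the highest, against 5.46 CPM in tumor 9.2, 0.419 in tumor 10.2 and 4.98 in tumor 12.2. HOXC4 had 0, 1.22 and 3.49 CPM at the same points in high tumors, against 2.43 CPM in tumor 9.2, 0.0323 in tumor 10.2 and 1.23 in tumor 12.2. The groups overlap for both genes, and each group held tumors with and without them.

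Both genes were detected in the same 7 tumors, 5 high (8.4.1.1.1, 4.3.1, 8.3, 15.2 and 13.1.1) and 2 low (9.2 and 12.2). In RefSeq, on another assembly than the counts, hoxc3a spans hoxc4a, hoxc5a, hoxc6a, hoxc8a and hoxc9a. Reads of HOXC4 and hoxc3a may therefore not be told apart, and the part of such reads in the joint pattern was not tested. The share of HOXC4 in the counts of both genes varied, from 19.8% of 101 counts in tumor 12.2 (95% exact binomial interval 12.5% to 28.9%) to 52.0% of 50 counts in tumor 15.2 (37.4% to 66.3%). High and low tumors did not differ detectably in either gene. The log2 fold change of hoxc3a, high over low, was -0.39 ± 1.19 (SE, adjusted p = 0.884, edgeR), and that of HOXC4 was 0.22 ± 1.41 (SE, adjusted p = 0.948, edgeR). With standard errors above 1, sizeable differences in either direction are compatible with these values.

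HOXC6 (ENSDARG00000070343) reached 2.46 CPM in low tumor 12.2 and at most 0.711 CPM in the high tumors, in 13.1.1. The median of the high tumors was 0.0823 CPM, against 0 CPM in tumor 9.2 and 0.161 in tumor 10.2. Tumor 12.2 alone was above 1. Its summed CPM of 14 mesenchyme genes was 28.5, the highest of all, with 3 of the 14 detected and COL1A1 at 19.4, against 1.85 to 27.5 in high tumors and 8.78 and 17.4 in low tumors 9.2 and 10.2. High tumor 15.2 had a mesenchyme sum of 27.5 CPM with 8 of the 14 detected, and HOXC6 there was at 0.0496 CPM. The part of mesenchyme in the HOXC6 level was not tested. The second HOXC6 row had 1 count in all. HOXC5, between HOXC4 and HOXC6 in the cluster, did not exceed 0.170 CPM.

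In the HOXA clusters, hoxa13b was the 1 detected gene, and it was not detected without TMM factors or after thinning all tumors to the same total, which leaves 8 detected HOX genes. Paralogue group 13 genes pattern the ends of the body axis and of the fins. It had 1.03 CPM from 18 counts in high tumor 2.1, at most 0.170 CPM in the other high tumors, and 0.928 CPM in tumor 9.2, 0 in tumor 10.2 and 0.246 in tumor 12.2. The value in tumor 2.1 is the nearest of all above the detection threshold and that in tumor 9.2, from 26 counts, the nearest below it. Their exact 95% counting intervals, 0.613 to 1.64 and 0.606 to 1.36 CPM, both include 1. The other copy, hoxa13a, had 3 counts over all tumors. HOXA3 had 9 of its 12 counts in tumor 8.3.

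The HOX total thus came from different genes in different tumors. Summed HOX CPM was 2.81 to 22.4 in high tumors, lowest in 7.2.1 and highest in 14.1.1.1, against 10.4 in tumor 9.2, 46.7 in tumor 10.2 and 37.8 in tumor 12.2. HOXB rows held 92.8% of 263 HOX counts in high tumor 14.1.1.1 (95% exact binomial interval 88.9% to 95.6%), 15.4% of 227 in high tumor 4.3.1 (11.0% to 20.8%), 98.4% of 1449 in low tumor 10.2 (97.6% to 99.0%) and 14.04% of 292 in low tumor 9.2 (10.3% to 18.6%). HOXC rows held most of the rest, 84.1% in high tumor 4.3.1, 66.3% in high tumor 13.1.1 and 75.7% in low tumor 9.2. HOXA rows held 20.4% in tumor 2.1 (12.9% to 29.7%), all but 2 of those 20 counts from hoxa13b, and 10.3% in tumor 9.2. Within each group, some tumors had most of their HOX counts on HOXB rows and others on HOXC rows.

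**Figure D4:**
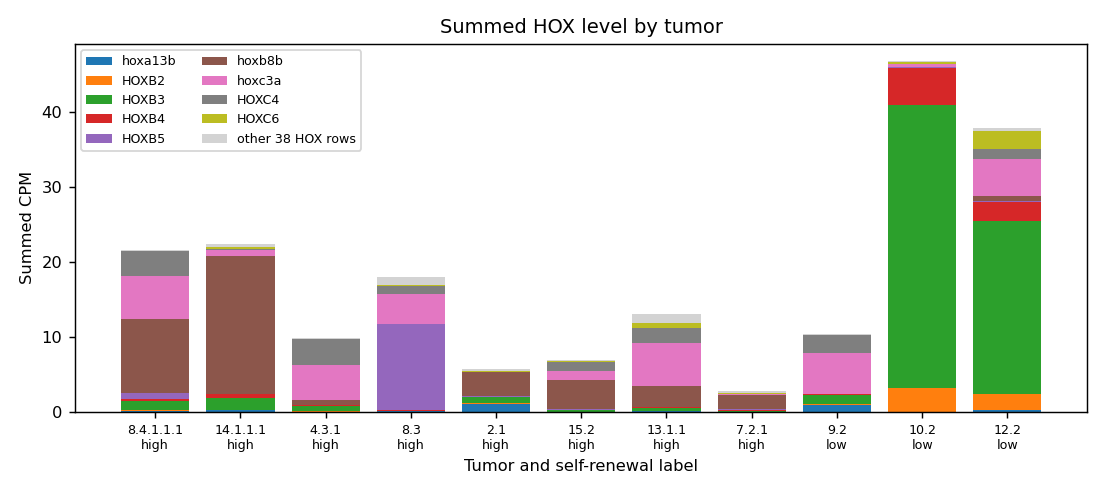
Summed CPM of all 47 HOX rows (vertical) in the 11 tumors, stacked by gene, with the 38 undetected rows together in grey. High tumors stand left and low tumors right. The bars of low tumors 10.2 and 12.2, at 46.7 and 37.8 CPM, are the tallest and mostly HOXB3, the bar of 14.1.1.1 is mostly hoxb8b, and that of 8.3 mostly HOXB5. Longer transcripts give more counts, so the parts of a bar compare between tumors and not with each other.

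More rows had at least 1 count in some tumors than in others. Of the 47 rows, 25 had a count in high tumor 13.1.1 and 23 in high tumor 8.3, against 8 to 12 in the other high tumors and 10 to 13 in the low tumors. Per library, 13.1.1 had 18 rows in each and 8.3 had 17 and 16, so the number of rows was alike in both libraries of these tumors. The rows differed in part between the libraries, since each library fell short of the 25 or 23 rows of its tumor. Tumor 8.3 was the deepest of all, with 32466048 counts, and 13.1.1 had 20327999. In tumor 13.1.1 the summed CPM of 7 endothelial genes (20.8, of which tek gave 17.3), 7 erythroid genes (46.8) and 5 thrombocyte genes (5.97) was the highest of the 11 tumors, and that of 11 neutrophil and macrophage genes was 119, within a range of 26.5 to 148 over all tumors. That tumor also had 8 of 14 mesenchyme genes at a CPM of 1, as did 15.2, with DCN at 4.31 CPM. In tumor 8.3, by contrast, erythroid genes summed to 1.14 CPM and endothelial genes to 1.30 CPM, the lowest of all, and thrombocyte genes to 3.05 CPM. The part of such RNA in the spread of low HOX counts was not tested.

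Libraries of the same tumor mostly gave the same detection. Over 9 genes and 9 tumors with 2 libraries, 23 of 81 pairs were detected in both libraries, 54 in neither and 4 in one. Those 4 were hoxa13b and HOXB3 in tumor 9.2, hoxc3a in tumor 15.2 and HOXC4 in tumor 8.3. Where both libraries detected a gene, the higher was a median of 1.12 times the lower and at most 2.95 times, for HOXB4 in tumor 12.2 with 3.31 and 1.13 CPM.

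**Figure D5:**
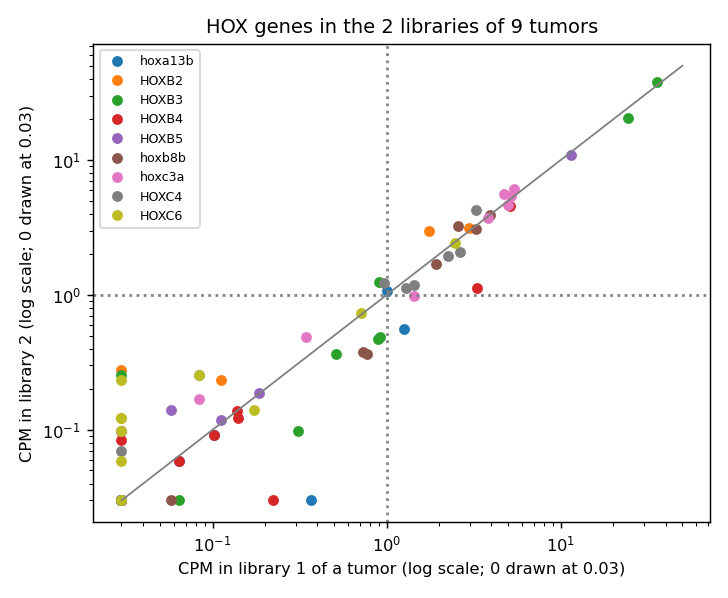
CPM of the 9 detected HOX genes in the 2 libraries of each of 9 tumors (both axes logarithmic, library 1 horizontal, library 2 vertical; a level of 0 is drawn at 0.03). Points near the grey diagonal have the same level in both, and dotted lines mark a CPM of 1. Points above 1 CPM in both libraries lie close to the diagonal, and of these HOXB4 in tumor 12.2, at 3.31 and 1.13 CPM, lies farthest from it.

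HOX proteins bind DNA with TALE homeodomain partners of the PBX, MEIS and PKNOX families. As cofactors, 15 TALE genes were followed, a list that also holds TGIF1 of the related TGIF family. Of these, 10 were detected, against 52.1% of all rows, and 9 tested. In high tumors 1 was called higher and 0 lower, against 4.0% and 5.2% of all genes tested, which for so few genes is near the background, and their median log2 fold change was 0.63, against 0.04 over all genes tested. The called gene, PKNOX1 (ENSDARG00000036542), one of 2 rows with that symbol and a partner of PBX proteins, had 14.5 CPM at the lowest, 33.4 at the median and 75.9 at the highest in high tumors, against 11.9 CPM in tumor 9.2, 8.77 in tumor 10.2 and 5.97 in tumor 12.2. All high tumors lay above all low tumors, and the log2 fold change was 2.04 ± 0.50 (SE, adjusted p = 0.0255, edgeR). The call was lost without tumor 10.2 (adjusted p = 0.109) and without tumor 12.2 (adjusted p = 0.0833). The second PKNOX1 row (ENSDARG00000018765) had a log2 fold change of 0.01 ± 0.26 (SE, adjusted p = 0.994, edgeR). Named by mean CPM, a choice that also reflects transcript length, were TGIF1, at 98.5 to 258 CPM in high tumors and 94.3 to 112 CPM in low tumors, pbx4, at 74.2 to 151 CPM in high tumors and 36.9 to 85.0 CPM in low tumors, and pbx2, at 30.5 to 72.4 CPM in high tumors and 25.9 to 54.6 CPM in low tumors. MEIS1, the partner best known from leukemia, did not exceed 1.96 CPM in high tumors and 0.246 CPM in low tumors. MEIS2 was at 40.6 CPM in low tumor 9.2 and at most 9.28 CPM elsewhere.

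Regulators that open or maintain HOX chromatin were also followed. Among 21 rows for such genes, 20 were detected (52.1% of all rows) and 19 tested, with 0 called higher and 1 lower in high tumors (4.0% and 5.2% of all genes tested), which is near the background, and their median log2 fold change was 0.10. The called gene, kat7a, which encodes a histone acetyltransferase, had 38.6 CPM at the lowest, 59.3 at the median and 83.1 at the highest in high tumors, against 109 CPM in tumor 9.2, 127 in tumor 10.2 and 104 in tumor 12.2. Its log2 fold change was -0.94 ± 0.23 (SE, adjusted p = 0.0258, edgeR), and the groups did not overlap. Leaving out any 1 of the low tumors ended the call, with adjusted p-values of 0.0632 without 9.2, 0.125 without 10.2 and 0.0619 without 12.2. Of those named by mean CPM, kmt2a, the MLL methyltransferase that maintains HOX activity, had 662 to 1995 CPM in high tumors and 1145 to 1421 CPM in low tumors, and kmt2bb had 315 to 707 CPM in high tumors and 352 to 473 CPM in low tumors. MLLT3, a KMT2A fusion partner that is not in the tested set, had at most 0.298 CPM in high tumors, against 156 CPM in tumor 9.2, 26.1 in tumor 10.2 and 0 in tumor 12.2. The embryonic HOX activator cdx4 stayed under 0.2 CPM in every tumor.

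Most genes that flank the clusters were detected. The 42 genes were the nearest with a single matching row of the count table, 3 on each side of each cluster by RefSeq order. Genes without such a row were skipped, so a skipped gene may lie between a cluster and a listed gene. Of the 42, 34 were detected (52.1% of all rows) and 32 tested. In high tumors 2 were called higher and 1 lower (4.0% and 5.2% of all genes tested), and the median log2 fold change was 0.14. The share called is near the background, and the called genes are given as single values. The even-skipped genes beside the clusters (evx1, EVX1, EVX2 and eve1), of which eve1 and EVX2 are also among the 42, had no count in any tumor. On the posterior side of hoxca, the first listed gene beyond hoxc13a was nr1d4a, a nuclear receptor gene. It had 29.7 to 69.7 CPM in high tumors, against 0.0714 CPM in tumor 9.2, 0.678 in tumor 10.2 and 11.0 in tumor 12.2. Its log2 fold change was 3.73 ± 1.06 (SE, adjusted p = 0.0476, edgeR). Like hoxb8b, nr1d4a passed the filter on low counts through the high tumors, where it is high, so this call, counted above, is not read. This call stood in 1 of 11 fits that left out a tumor, with log2 fold changes of 3.14 to 7.09 and adjusted p-values between 0.000286 and 0.164, the fold of 7.09 and the lowest p without tumor 12.2. DESeq2 gave 3.72 (adjusted p = 0.000198) and limma-voom 6.12 (adjusted p = 0.00279), which used the same filter and are not read either. GDAP1L1, the third gene on that side, had 0.427 to 13.2 CPM in high tumors and 0.0714 to 0.369 CPM in low tumors. Its log2 fold change was 4.83 ± 1.2 (SE, adjusted p = 0.0281, edgeR). GDAP1L1 passed the filter on low counts through the high tumors, where it is high, so this call, counted above, is not read. In the fit without any filter, edgeR gave 4.82 with an adjusted p of 0.0282. Leaving out tumor 9.2 or tumor 10.2 ended the call, with adjusted p-values of 0.0981 and 0.128, and limma-voom gave 0.111. MFSD5, which lies between nr1d4a and GDAP1L1, was not called (adjusted p = 0.356, edgeR), and neither was CBX5 on the other side of the cluster. CBX5 had 93.3 to 257 CPM in high tumors and 127 to 218 CPM in low tumors.

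The first listed gene beyond hoxa13a was hibadha, an enzyme gene of valine breakdown. It had 0.0575 to 3.05 CPM in high tumors and 6.16 to 11.9 CPM in low tumors. Its log2 fold change was -3.49 ± 0.93 (SE, adjusted p = 0.0385, edgeR), and it was called in 3 of 11 fits that left out a tumor. On the other side of hoxaa, SNX10 did not exceed 1.19 CPM. Beside hoxa13b, HIBADH had 43.8 to 85.2 CPM in high tumors and 61.2 to 93.3 CPM in low tumors, and SKAP2, at the hoxa2b end, had 0.0953 to 5.36 CPM in high tumors and 0.554 to 27.1 CPM in low tumors.

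Beside hoxb8b, ttll6 had 0.173 to 6.80 CPM in high tumors and 0.194 to 2.03 CPM in low tumors. At the other end of hoxbb, skap1, an adaptor of the T cell receptor, had 163 to 332 CPM in high tumors, against 0.0357 CPM in tumor 9.2, 27.0 in tumor 10.2 and 96.5 in tumor 12.2. The groups did not overlap, yet the edgeR log2 fold change of 2.64 ± 1.13 (SE) had an adjusted p of 0.17. DESeq2 gave 2.64 with an adjusted p of 0.0334, and limma-voom 6.03 with 0.0225. Since skap1 passed the filter on low counts through the high tumors, where it is high, these DESeq2 and limma-voom calls are not read. Without tumor 9.2 the edgeR value was 2.05 with an adjusted p of 0.0295, and without tumor 12.2 it was 4.27 with 0.0921. NFE2L1, at the hoxb1a end of hoxba, had 9.20 to 121 CPM in high tumors and 20.6 to 57.9 CPM in low tumors.

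The nearest neighbours of hoxcb and of the hoxd3a end of hoxda overlapped between the groups. At the hoxd13a end EVX2 had no count, and the next listed gene, ATP5MC3, did not overlap between the groups. ATP5MC3 had 65.96 to 116 CPM in high tumors and 44.6 to 65.45 CPM in low tumors. Its log2 fold change was 0.69 ± 0.23 (SE, adjusted p = 0.0873, edgeR). NFE2L2, beside hoxd3a, had 15.7 to 104 CPM in high tumors and 9.46 to 31.9 CPM in low tumors, whereas the HOXD genes next to it were not detected in any tumor. At hoxcb, nr1d4b had 21.5 to 102 CPM in high tumors and 20.5 to 68.7 CPM in low tumors, and SMUG1 had 1.42 to 5.46 CPM in high tumors and 1.91 to 2.55 CPM in low tumors.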

How the data were processed

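The deposited values are the authors' raw counts per Ensembl gene and library, not normalized. STAR, Picard and featureCounts were used with GRCz10, per the submitters' processing notes, with no version named. Strandedness is not given in the sources used here, and reads of overlapping genes may not be told apart. All columns of the table were mapped to samples by title. Groups follow the self-renewal label. Libraries of a tumor were summed. Their counts differed beyond sampling noise (chi-square per degree of freedom 1.31 to 31.3 over the 9 tumors, genes with 10 or more counts in both libraries together), so no pair looked like a library deposited again. Symbols came from a gene name table (26269 of 32105 rows). RefSeq names and positions of GRCz12tu, another assembly than that of the counts, gave neighbour order, gene spans and the a or b copy of a symbol. Sequences of the genes were not used here. The HOX rows, gene lists and tests were chosen with earlier results of these data known.

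Counts were tested with edgeR 4.0.16 in R 4.3.3 (filterByExpr by group, TMM factors, quasi-likelihood F-test by glmQLFit and glmQLFTest, both directions), and p-values were adjusted by Benjamini-Hochberg over all 16008 genes tested with a threshold of 0.05. Fold changes are log2, high over low tumors. The SE of an edgeR fold change was derived as its absolute log2 value divided by the square root of the F statistic. DESeq2 1.42.0, limma-voom (limma 3.58.1), other scalings, other filters and leaving out each tumor were alternatives. The rate of recovered changes was tested on simulated data. Of changes of 2, 4, 8 and 16 times, 4%, 34%, 72% and 82% were recovered. The simulation covered all genes tested and not HOX levels in particular. Named with values were all HOX genes at a CPM of 1 or more in a tumor, with full statistics for those called and for those with the smallest p up to 6, and of the other lists each called gene, the 2 to 4 highest and the nearest flanking genes. MEIS1, MEIS2, MLLT3, cdx4, MFSD5, some HOX rows under a CPM of 1 and the marker genes were named after their values were seen. Binomial and counting intervals are exact at 95% and cover counting error only. A floor of 3 counts was used for levels of 0.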

Additional observations from a re-analysis of the deposited data

Results flagged for a closer look

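Among 26 genes examined for a high tumor that stands apart from the other 7 by Dixon's test, 5 did. HOXB5 (ENSDARG00000054030) was at 11.6 CPM in tumor 8.3, and hoxa13b was at 1.03 CPM in tumor 2.1. Each of these 2 genes reached a CPM of 1 in that tumor alone and was named through it. Their flags rest on the values that selected them and are not read. Of the flanking genes, hibadha (3.05 CPM) and NFE2L2 (104 CPM) stood apart in tumor 8.3, and ttll6 (6.80 CPM) in tumor 15.2. Chance flags about 5% of groups of normally distributed values, and the rate for skewed CPM values such as these was not measured. Tumor 8.3 holds 3 of the 5 values. The share of all genes that the same rule flags, in tumor 8.3 or elsewhere, was not taken. These counts are therefore not read as a trait of HOX or flanking genes. Tumor 8.3 is also the tumor with the highest summed muscle markers, 18.1 CPM with 3 of 7 detected (ckma, ckmb and 1 TNNT3 row), and with tubb5 at 21.6 CPM. The part of these markers' source in the 3 values was not tested. No cause is weighed for any of them.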

How the results depend on the processing

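The numbers of detected HOX genes and of pairs of gene and tumor stayed within 1.5 times the reported 9 genes and 32 pairs at CPM thresholds of 0.5 and 2, without TMM factors, per library and after thinning. Without TMM factors, at a CPM of 2 and after thinning, 8 genes were detected. Of 66 counts per tumor under these settings, 59 were within 1.5 times. Counts of calls moved more. DESeq2 called 17.8% of all genes tested in either direction. Among its calls were 2 of 9 cofactors higher, 5 of 32 flanking genes higher and 3 lower, and 1 of 4 HOX genes higher. That HOX gene was hoxb8b, which passed the filter through the high tumors, where it is high. limma-voom called 0 HOX genes lower, with 9.95% of all genes called in either direction. The analysis without a filter called 3 of 41 HOX genes and 2 of 21 regulators lower. For that analysis and for the fits without 1 tumor, the share over all genes was not taken. Those counts are therefore not read against a background. Leaving out each tumor gave 1 to 3 HOX genes lower (3 without tumor 9.2, where HOXB2 and HOXB4 enter through the tumors where they are high), 0 to 1 cofactors higher, 0 to 1 regulators higher, 0 to 1 regulators lower, 0 to 2 flanking genes higher and 0 to 2 flanking genes lower. The log2 fold change of hoxc3a lay between -0.92 and 0.039 (the sign turned without tumor 9.2) and that of HOXC4 between -0.36 and 1.21 (it turned without 8.4.1.1.1, -0.07, without 4.3.1, -0.11, and without 10.2). Of 164 values of single genes, 130 kept direction and side of the threshold, 26 lost the call, 4 gained it and 4 turned sign. The cause was not tested. Other scalings moved the median of all genes to between -0.03 and 0.06. No paired analysis was possible because the replicate number in the labels runs 1 to 2 within a tumor and names its libraries, which were summed. With 3 low tumors and few counts per HOX gene, depth and number of tumors limit what can be shown. Labels give no sequencing batch.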
